A study of Homo sapiens with 3 samples.

Results

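MHC class I molecules show peptides from inside the cell to CD8 T cells and natural killer cells. Each is a heavy chain, such as those of HLA-B, HLA-C, HLA-E and HLA-F, joined to the light chain beta-2-microglobulin (B2M). The transporter made of TAP1 and TAP2 pumps peptides into the endoplasmic reticulum, tapasin (TAPBP) holds the empty heavy chain at the transporter while it is loaded, and NLRC5 is the transactivator that turns on class I promoters. In macrophages and their monocyte precursors this machinery is always present and is raised by interferons. Its transcripts are described here in THP-1, an established human monocytic leukemia line, before and after phorbol myristate acetate (PMA), an activator of protein kinase C that makes the cells adherent and macrophage-like. Members were the probe sets whose only listed gene was 1 of these 9 genes. There were 25 such probe sets of 54675 on the array, and all 9 of the 19775 named genes were found.

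The series held 3 arrays, 1 from each of 3 THP-1 cultures, all without further genetic change named in the labels. The first culture was undifferentiated. The PMA 3 days culture was given 200 nM PMA for 24 h and was then kept 3 days without it, and the PMA 8 days culture was given 200 nM PMA for 72 h and was then kept 5 days without it. Length of exposure, time since PMA and age of the culture therefore cannot be told apart between the PMA cultures. Medium with 2% serum was given 16 h before RNA was taken, and whether the undifferentiated culture received it too is not stated. With 1 array per condition there was no replicate and no test between conditions, so differences below are sizes, not tested effects. The array number limits the precision of every value.

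Signals are linear array intensities without unit, deposited after the authors' own scaling. Values below 149.8, the median of all signals, were raised to this floor before ratios were formed. Of the 25 probe sets, 23 were above the floor on all 3 arrays, and 2 for TAP2 were below it on all 3. A gene with several probe sets is represented by the brightest one unless stated, and a gene is called "higher" or "lower" from 2-fold on. As a partial measure of technical error, probe sets of the same gene were set against each other. Over 5180 genes the SD of their log2 ratios was 0.40 when either PMA array was divided by the undifferentiated one, and 0.25 between both PMA arrays. It holds no spread between cultures and no error shared by probe sets of the same array. Differences in what the paired probe sets detect are part of it. Among whole-array properties, 48.5% to 51.5% of probe sets lay above the floor. Of the macrophage markers, 6 of 6 were higher on both PMA arrays, with summed signals of 7173, 123431 and 89574 on the undifferentiated, PMA 3 days and PMA 8 days arrays, the order used for every trio of signals from here on. Of the 6 progenitor markers 5 were lower at both times, with sums of 135177, 2383 and 3108. The lymphocyte markers summed to 1594, 1071 and 1257, and CD3E, CD3D and MS4A1 among them were below the floor on all 3 arrays. CD79A (492, 348 and 425) and NKG7 (587, 256 and 337) were above it on all 3, and NKG7 was 2.29-fold lower at PMA 3 days. Fibroblast, epithelial and endothelial markers summed to 22147, 23479 and 20883, mostly PECAM1, with COL3A1, EPCAM and CDH5 below the floor on all 3 arrays and COL1A1 at 464, 2337 and 1828. The other informative COL1A1 probe sets had log2 ratios from -0.39 to 0.06 at PMA 3 days, and of -0.11 and -0.08 at PMA 8 days. The part of any of these in the results was not tested. In RNA from whole cultures, fewer cells of a kind and less RNA per cell cannot be told apart.

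The promoters of these genes carry sequence elements through which class I transcription is known to be controlled: an interferon response element, an NF-kB site, and an X box followed by a Y box, the module at which NLRC5 acts together with RFX, CREB and NF-Y proteins. RefSeq (GRCh38.p14) promoter sequences of 300 bases, 250 before the gene start and 50 after it, were given for 7 of the 9 genes, with 2 starts for TAP1. The 200 bases before the start are printed below, 5′ to 3′ in the direction of the gene. They show how alike the heavy chain promoters are and how the loading genes differ from them. They are reference sequences, and the alleles of THP-1 were not read. Capitals mark matched letters: the interferon response type (GAAA, any 2 bases, GAAA), the class I NF-kB type (the first run of capitals in HLA-B), TGACG with ATTGG 5 to 25 bases after it (X2 and Y box order), and CCAAT, which is ATTGG on the other strand. All were searched on both strands. The CCAAT letters on the other strand are also the ATTGG of the box order, so those matches overlap.
HLA-B, chr6:31357180-31357379, minus strand: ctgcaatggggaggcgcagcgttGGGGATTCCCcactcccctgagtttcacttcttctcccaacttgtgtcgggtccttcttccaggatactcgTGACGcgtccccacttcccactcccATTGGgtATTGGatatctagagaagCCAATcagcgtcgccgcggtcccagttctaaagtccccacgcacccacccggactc
HLA-C, chr6:31272093-31272292, minus strand: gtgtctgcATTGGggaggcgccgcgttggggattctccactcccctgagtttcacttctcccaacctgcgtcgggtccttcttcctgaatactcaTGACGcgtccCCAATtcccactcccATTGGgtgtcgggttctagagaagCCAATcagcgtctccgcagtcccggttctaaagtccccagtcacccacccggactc
HLA-F, chr6:29723234-29723433, plus strand: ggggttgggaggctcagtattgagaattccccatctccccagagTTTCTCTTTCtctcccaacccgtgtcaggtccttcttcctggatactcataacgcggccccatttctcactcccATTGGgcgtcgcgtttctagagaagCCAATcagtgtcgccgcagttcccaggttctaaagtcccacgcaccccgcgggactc
B2M, chr15:44711317-44711516, plus strand: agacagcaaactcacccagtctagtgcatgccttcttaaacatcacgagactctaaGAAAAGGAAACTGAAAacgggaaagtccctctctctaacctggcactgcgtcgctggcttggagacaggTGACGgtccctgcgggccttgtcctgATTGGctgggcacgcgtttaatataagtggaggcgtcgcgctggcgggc
TAP1, chr6:32853705-32853904, minus strand: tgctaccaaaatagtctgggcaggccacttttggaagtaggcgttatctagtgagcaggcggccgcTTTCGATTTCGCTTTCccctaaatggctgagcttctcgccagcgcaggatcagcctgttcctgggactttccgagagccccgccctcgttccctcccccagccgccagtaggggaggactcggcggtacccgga
TAP2, chr6:32838740-32838939, minus strand: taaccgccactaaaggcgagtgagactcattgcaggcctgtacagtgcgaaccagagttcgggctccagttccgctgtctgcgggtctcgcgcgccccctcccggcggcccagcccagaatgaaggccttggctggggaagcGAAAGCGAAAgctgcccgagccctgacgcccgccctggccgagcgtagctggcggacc
TAPBP, chr6:33314079-33314278, minus strand: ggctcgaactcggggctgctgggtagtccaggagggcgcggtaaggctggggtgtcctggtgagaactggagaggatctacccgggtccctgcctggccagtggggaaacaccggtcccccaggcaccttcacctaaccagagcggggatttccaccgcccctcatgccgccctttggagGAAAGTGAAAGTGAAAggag

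The heavy chain promoters resembled each other closely. In global alignments of these 200-base stretches, HLA-B and HLA-C were 87.7% identical, HLA-B and HLA-F 80.8%, and HLA-C and HLA-F 78.7%, gaps counted as differences. Every other pair of the printed promoters was between 40.4% and 50.2% identical. The X2 and Y box order was found in HLA-B, HLA-C and B2M and in 0.735% of all 35116 promoters of the table. In the 30 bases that end with the Y box letters, HLA-C differed from HLA-B at 1 position and HLA-F at 4, and HLA-F did not hold the TGACG letters:
HLA-B: TGACGcgtccccacttcccactcccATTGG
HLA-C: TGACGcgtccccaattcccactcccATTGG
HLA-F: taacgcggccccatttctcactcccATTGG
The interferon response letters were found in HLA-F, B2M, TAP1, TAP2 and TAPBP, with overlapping pairs of matches in B2M, TAP1 and TAPBP, against 3.57% of all promoters. The exact NF-kB letters were found only in HLA-B among the 7 genes and in 0.0769% of all promoters, and CCAAT in 34.6% of all promoters. Another interferon-linked motif, TTCNNNGAA (STAT type), was found among the 7 genes only before the other TAP1 start, 943 bases further on in the direction of the gene, and in 7.66% of all promoters. Only exact letters were searched, so an element with other letters would be missed. A missing match, as for the interferon response letters in HLA-B and HLA-C, does not show that the element is absent. These matches describe letters and do not show binding.

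Class I heavy chain and peptide transporter signals were above the undifferentiated array at both PMA times, from 1.31-fold for HLA-B to 4.22-fold for TAP1 by brightest probe sets. HLA-B and HLA-C were within 2-fold by these, and the HLA-B log2 ratio of 0.38 at PMA 3 days was 0.97 times the SD between probe sets. B2M and TAPBP also stayed within 2-fold, with log2 ratios from -0.29 to 0.21. The other TAPBP probe sets had 0.58 and 0.36 at PMA 8 days, beside 0.54 for the brightest of HLA-B. By brightest probe sets HLA-E, HLA-F, TAP1 and TAP2 were higher at PMA 3 days, 4 of 9 genes with none lower. Over all 13306 genes that could be compared, 10.4% were called higher and 10.7% lower. The same 4 genes were higher at PMA 8 days, again with none lower, against 9.83% higher and 8.49% lower of 13555 genes. Both comparisons share the undifferentiated array, so they are not independent. At 1.5-fold HLA-C and NLRC5 joined them, 6 of 9 at PMA 3 days against 17.9% of all genes and 6 of 9 at PMA 8 days against 17.6%. The median log2 ratio of the 9 genes was 0.98 at PMA 3 days and 0.99 at PMA 8 days, beside medians of -0.12 and -0.07 over all genes. Over single probe sets, 8 of 23 were higher at PMA 3 days (9.73% of all probe sets with 1 gene) and 6 of 23 at PMA 8 days (9.2%). By second-brightest probe sets only 1 of 7 genes was higher at either time, HLA-F, so the counts rest on the choice of probe set.

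**Figure D1:**
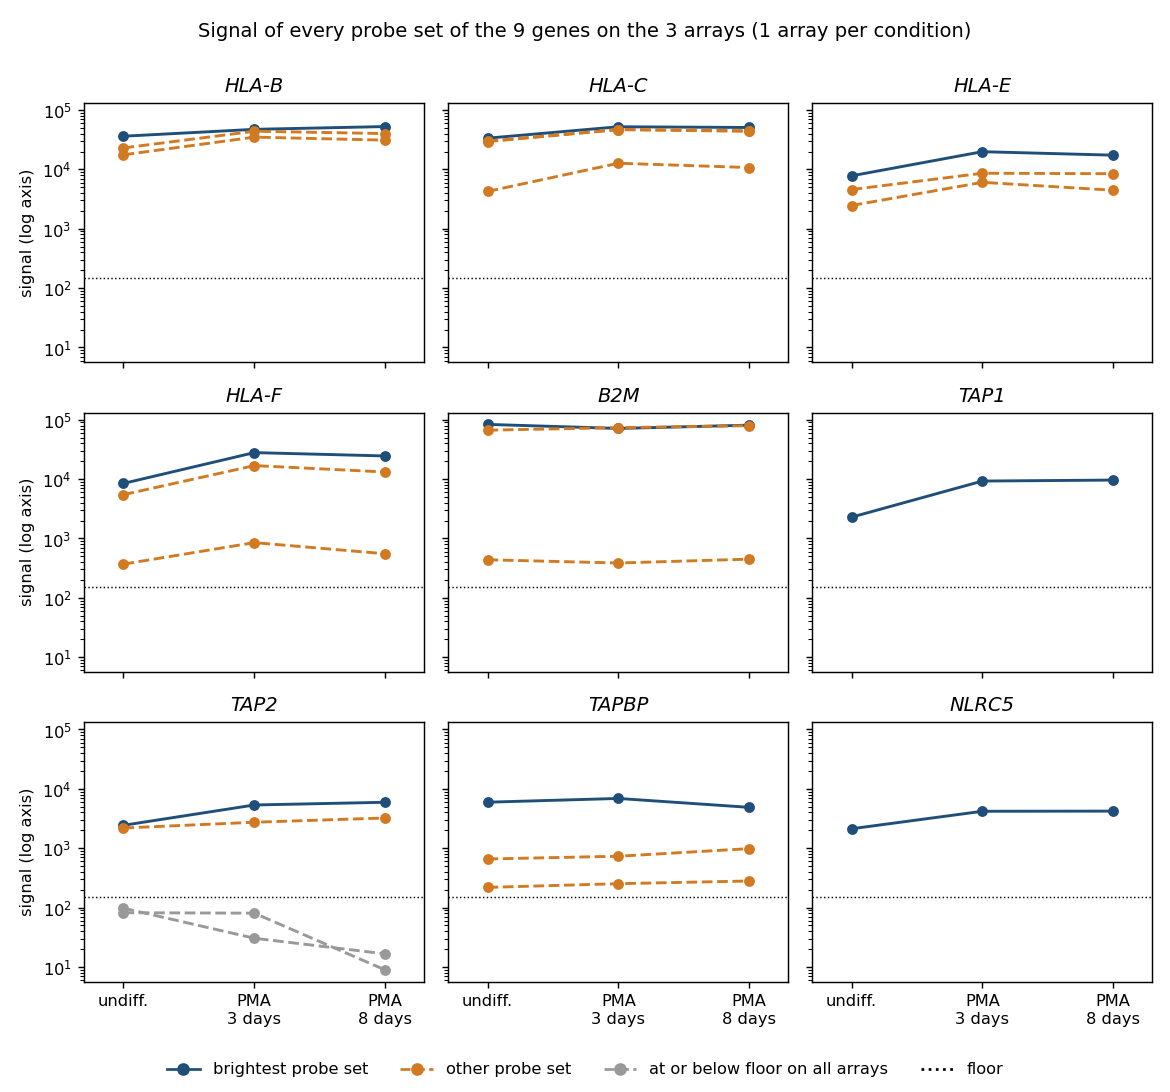
Signal (log axis, no unit) of all 25 probe sets on the 3 arrays, 1 panel per gene, with 1 array per condition and no error bars. Blue solid lines are the brightest probe set of each gene, orange dashed lines the others, grey lines the 2 TAP2 probe sets below the floor, and the dotted line is the floor of 149.8. Heavy chain, TAP1 and NLRC5 lines, and the TAP2 lines above the floor, go up from undifferentiated to PMA 3 days. Those of B2M stay nearly level.

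HLA-B and HLA-C encode classical heavy chains, which present peptides to CD8 T cells and, for HLA-C above all, are ligands of killer cell receptors. The brightest HLA-B probe set read 36211 in undifferentiated cells, 47283 at PMA 3 days and 52666 at PMA 8 days, 1.31-fold and 1.45-fold above undifferentiated. Its other probe sets read 22977, 43942 and 40112, and 17602, 34966 and 31086. The PMA 3 days values of these are 1.91-fold and 1.99-fold above undifferentiated, so the brightest probe set showed the smallest ratio of the 3. No HLA-B probe set passed 2-fold at either time, while all 3 were above the undifferentiated array at both.

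For HLA-C, 3 probe sets gave nearly the same picture. The brightest read 33551, 52253 and 50780, which is 1.56-fold and 1.51-fold. The next read 29920, 46971 and 44825, and another 29350, 46810 and 43732. The last HLA-C probe set was dimmer and changed more, with 4249, 12694 and 10741, or 2.99-fold and 2.53-fold. The gene is thus put between 1.49-fold and 2.53-fold at PMA 8 days depending on the probe set.

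HLA-E, a nonclassical heavy chain that presents leader peptides of other class I chains to the NKG2A receptor, was higher by its brightest probe set. It read 7789, 19865 and 17360, 2.55-fold at PMA 3 days and 2.23-fold at PMA 8 days, log2 ratios of 1.35 and 1.16. A probe set whose name ends in plain _at, the ending for probes designed to match 1 gene, read 2462, 6053 and 4450, 2.46-fold and 1.81-fold. The remaining one read 4579, 8610 and 8458, 1.88-fold and 1.85-fold. All 3 were above the undifferentiated array at both times, with log2 ratios from 0.85 to 1.35.

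HLA-F, a nonclassical heavy chain that can reach the cell surface without peptide, had the largest ratio of the 4 heavy chains by brightest probe sets. The brightest read 8465, 27951 and 24555, 3.30-fold at PMA 3 days and 2.90-fold at PMA 8 days. The next read 5468, 16883 and 13181, 3.09-fold and 2.41-fold. The dim plain _at probe set read 369, 851 and 552, log2 ratios of 1.20 and 0.58. All 3 HLA-F probe sets were therefore higher at PMA 3 days, and 2 of the 3 at PMA 8 days.

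All 13 heavy chain probe sets were above the undifferentiated array at both PMA times, from 1.31-fold to 3.30-fold at PMA 3 days and from 1.45-fold to 2.90-fold at PMA 8 days. Under scaling to the poly-A labelling controls, RNAs added at known amounts, the lowest of them was still above 0 on the log2 scale, at 0.08 for PMA 3 days. Of the 13, 11 have names ending in _x_at, the ending for probe sets with probes that can match other genes, so signal may be shared between the heavy chains and the genes cannot be fully told apart. The median log2 ratio at PMA 3 days was 0.94 over these 11 and 1.25 over the other 2, and at PMA 8 days 0.82 and 0.72. Brighter heavy chain probe sets tended to have smaller ratios, with Spearman's rho of -0.66 at PMA 3 days and -0.47 at PMA 8 days over the 13, which share arrays and sequence. The highest signals of any probe set were 98138, 79190 and 84400 on the arrays, and whether bright probe sets lost part of a difference was not tested.

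**Figure D2:**
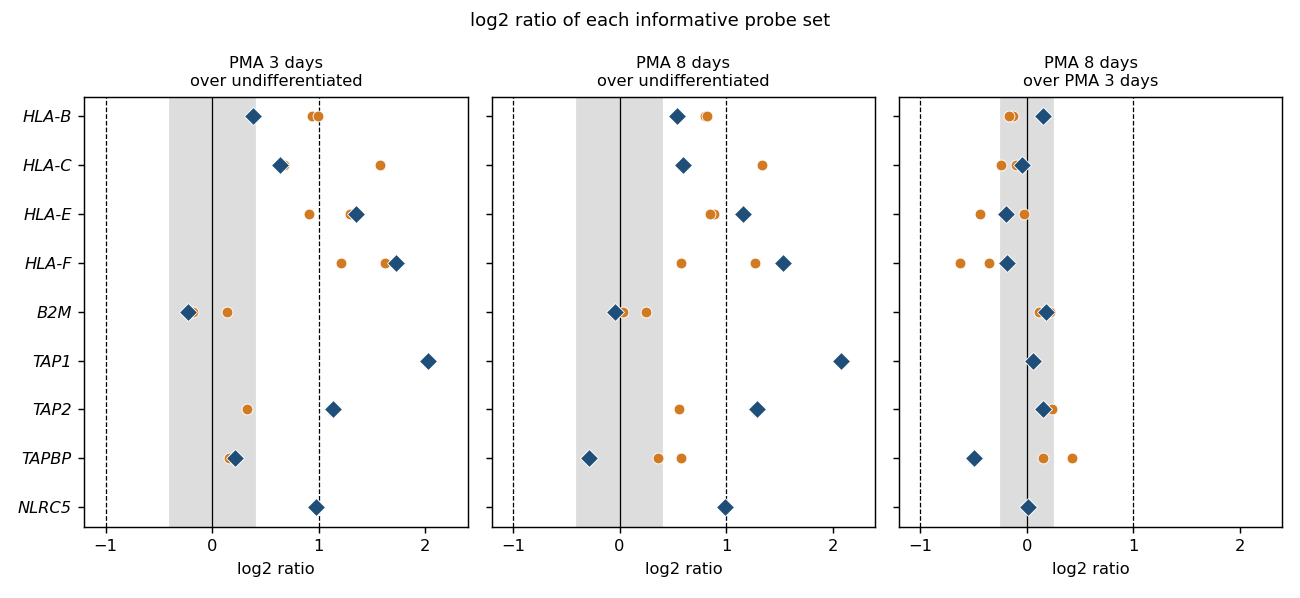
log2 ratio (x axis) of the 23 probe sets above the floor, by gene (y axis), for the 3 comparisons of single arrays. Diamonds are the brightest probe set of each gene, circles the others, the grey band is 1 SD between probe sets of the same gene to either side of 0 (0.40, 0.40 and 0.25), and dashed lines mark 2-fold. All HLA probe sets lie right of 0 in the first 2 panels, TAP1 lies farthest right, and none lies past 2-fold in the comparison of PMA 8 days with PMA 3 days.

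B2M, the light chain that class I heavy chains pair with, stayed near its undifferentiated level. Its brightest probe set read 83542, 71383 and 81069, log2 ratios of -0.23 at PMA 3 days and -0.04 at PMA 8 days. The second, nearly as bright, read 66696, 73614 and 79439, log2 ratios of 0.14 and 0.25. The dim one read 437, 386 and 448. The probe sets disagreed in direction at PMA 3 days, and all 3 log2 ratios were smaller than the SD between probe sets at both times. The signals of the first 2 are close to the highest on each array, and what a ceiling might hide was not tested.

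TAP1, which forms the ATP-driven peptide channel with TAP2, had the largest ratio of the 9 genes. It went from 2284 in undifferentiated cells to 9273 at PMA 3 days and 9630 at PMA 8 days, 4.06-fold and 4.22-fold, or 2.02 and 2.08 on the log2 scale. This is 5.09 and 5.16 times the SD between probe sets. TAP1 has 1 probe set, so no second reading of the gene was at hand. Its log2 ratio ranged from 1.72 to 2.14 at PMA 3 days over the alternatives that gave a value, and from 2.06 to 2.15 at PMA 8 days.

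TAP2, the other subunit of the transporter, was higher by its brightest probe set, which read 2430, 5343 and 5936, 2.20-fold at PMA 3 days and 2.44-fold at PMA 8 days. The second informative probe set read 2188, 2736 and 3227, log2 ratios of 0.32 and 0.56. Both were above the undifferentiated array at both times, yet only the brightest passed 2-fold. The other 2 probe sets lay below the floor, at 8.88 to 97.4, and give no ratio.

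TAPBP, the tapasin gene, stayed within 2-fold. Its brightest probe set read 5952, 6885 and 4876, log2 ratios of 0.21 at PMA 3 days and -0.29 at PMA 8 days. The others read 658, 732 and 983, and 219, 252 and 280, log2 ratios of 0.58 and 0.36 at PMA 8 days. The probe sets therefore disagreed on the direction at PMA 8 days, and poly-A control scaling also turned the sign of the PMA 3 days ratio to -0.10.

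NLRC5, which has 1 probe set, went from 2124 to 4186 at PMA 3 days and 4211 at PMA 8 days. Both ratios fell just short of 2-fold, at 1.97-fold and 1.98-fold. They were 2.46 and 2.45 times the SD between probe sets. Of 8 alternatives, 2 put it past 2-fold at both times: quantile normalization (log2 ratios of 1.01 and 1.02) and centring on the median of all genes (1.10 and 1.06). Poly-A control scaling gave 0.67 and 0.97.

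Between the PMA arrays the 9 genes differed little by brightest probe sets. None passed 2-fold for PMA 8 days over PMA 3 days, where 2.33% of 13051 genes did, and none passed 1.5-fold, where 11.9% did. Of the 23 probe sets none passed 2-fold either, against 2.28% of all probe sets with 1 gene. Counts of 0 among so few members lie near these shares and do not set the 9 genes apart. The median log2 ratio of the 9 genes was 0.01, beside 0.04 over all genes. The heavy chain probe sets leaned to lower values, 12 of 13 with a median of -0.17. The lowest was the dim HLA-F probe set at -0.62, which is 1.54-fold lower and past 1.5-fold. The transport genes and NLRC5 were level or slightly up, with 0.05 for TAP1, 0.15 for TAP2 and 0.01 for NLRC5. The sign of the heavy chain ratios depends on the scaling: scaled to poly-A controls, which had a median log2 ratio of -0.29 between these arrays, 10 of the 13 heavy chain probe sets were above 0 and their median was 0.12. That scaling shifts all genes alike, and TAP1 then had 0.34, TAP2 0.44 and NLRC5 0.29. TAPBP had the largest difference of the 9, -0.50 by its brightest probe set, against 0.43 and 0.15 by the others.

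**Figure D3:**
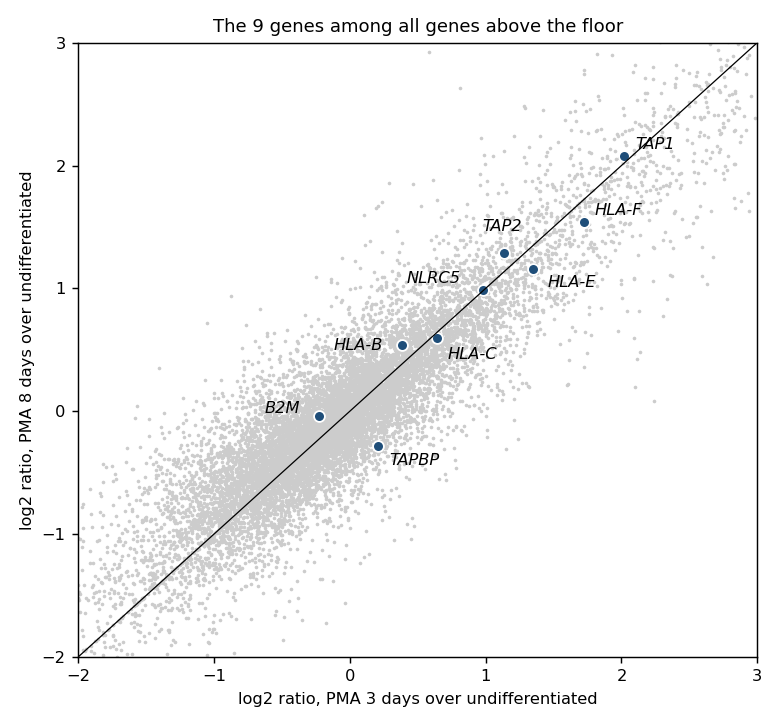
log2 ratio of PMA 8 days over undifferentiated (y axis) against PMA 3 days over undifferentiated (x axis), 1 grey point per gene above the floor and blue points for the 9 genes, by brightest probe set. Axes stop at -2 and 3, the line marks equal ratios, and both axes use the same undifferentiated array, so points line up in part for that reason. TAP1 lies at 2.02 and 2.08, and TAPBP and B2M lie near 0 on both axes.

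How all genes fell on either side depended on the scaling. At PMA 3 days, 49.2% of the calls over all genes were higher ones, and 28.7% under poly-A control scaling and 59.2% after centring on the median. For PMA 8 days over PMA 3 days the share was 58.9%, and 92.3% under poly-A control scaling. That scaling moved the median of all genes from -0.12 to -0.39 at PMA 3 days and from 0.04 to 0.30 for PMA 8 days over PMA 3 days. Under it 3 of the 9 genes were higher at PMA 3 days, against 7.48% of all genes, HLA-E with a log2 ratio of 1.04, HLA-F with 1.42 and TAP1 with 1.72, and TAP2 went to 0.83.

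Genes acting before and after the transporter were followed as lists written from general knowledge. Peptide supply and trimming genes, which cut proteins into peptides, were higher in 1 of 10 measured members at PMA 3 days and in 0 of 10 at PMA 8 days, with none lower (medians of 0.05 and 0.00), beside 10.4% and 9.83% higher over all genes. These counts lie near the background or below it. The 1 was ERAP1, an aminopeptidase that trims peptides in the endoplasmic reticulum, at 3908, 9500 and 7010. It was 2.43-fold at PMA 3 days by its brightest probe set, and the log2 ratios of its other informative probe sets there were -0.08 and 1.68. PSMB9, a catalytic subunit of the immunoproteasome, read 7501, 13623 and 13161, 1.82-fold and 1.75-fold. Its gene start lies 488 bases from the first TAP1 start on the opposite strand. PSMB8, the immunoproteasome gene between TAP2 and TAP1, read 13248, 12660 and 13519, log2 ratios of -0.07 and 0.03. PSMB10, the remaining catalytic subunit of the immunoproteasome, read 13340, 8125 and 7599, log2 ratios of -0.72 and -0.81.

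A list of endoplasmic reticulum chaperones and related enzymes also held intramembrane proteases, not all of them from that compartment. It was higher in 1 of 10 members at both times with none lower (medians of 0.43 and 0.36). The count of higher genes is again near the share over all genes, 10.4% at PMA 3 days and 9.83% at PMA 8 days. The 1 was SPPL2A, an intramembrane protease and not a chaperone, at 8530, 19350 and 18192, 2.27-fold and 2.13-fold. Its other 2 informative probe sets were within 2-fold, both with a log2 ratio of 0.48 at PMA 3 days and with 0.14 and 0.22 at PMA 8 days. CALR, the chaperone calreticulin of the loading complex, read 8122, 13112 and 11552, and PDIA3, its partner oxidoreductase, 30564, 39988 and 35608. TAPBPL, a tapasin-related peptide editor, read 399, 745 and 576, 1.87-fold and 1.44-fold. Transport and turnover genes were lower in 1 of 12 at both times, EHD1, a recycling factor (2.32-fold and 2.94-fold lower), and higher in 1 of 12 at PMA 8 days, RAB22A (2.02-fold), whose other informative probe set had a log2 ratio of -0.16. These counts lie near the shares over all genes, 10.7% lower at PMA 3 days, and 8.49% lower and 9.83% higher at PMA 8 days.

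Among transcription factors that act on class I promoters, 1 of 13 was higher and 3 lower at PMA 3 days (median -0.35), beside 10.4% and 10.7% over all genes, and at PMA 8 days 0 were higher and 1 lower (median -0.36), beside 9.83% and 8.49%. IRF2, an interferon regulatory factor, was 2.22-fold higher at PMA 3 days, from 749 to 1666. IRF8, a factor of monocyte precursors, was 13.9-fold lower, from 23399 to 1688, and 10.6-fold lower at PMA 8 days. RFXAP, a subunit of the RFX complex at the X box, was 2.20-fold lower at PMA 3 days (1553 to 706), and NFYB, a subunit of the Y box factor NF-Y, lay at the edge of the call (2413 to 1205). RFX5 read 9304, 7304 and 9288.

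Interferon genes were followed because class I genes are known targets. In the interferon gamma list 4 of 11 were higher at PMA 3 days and 3 of 11 at PMA 8 days, with none lower (medians of 0.50 and 0.75). The shares over all genes were 10.4% higher and 10.7% lower at PMA 3 days, and 9.83% and 8.49% at PMA 8 days. IFNGR1, the ligand-binding receptor chain, read 13424, 41080 and 42485, 3.06-fold and 3.16-fold. GBP1, a guanylate-binding protein, was below the floor in undifferentiated cells and read 9291 and 8137 on the PMA arrays, at least 62.0-fold and at least 54.3-fold. GBP2 was 2.96-fold and 3.01-fold higher. SOCS3, a brake on cytokine signalling, was below the floor in undifferentiated cells and at least 3.39-fold higher at PMA 3 days. IRF1, a direct activator of class I promoters, read 953, 1241 and 1603 by its brightest probe set, and another of its probe sets had a log2 ratio of 1.47 at PMA 3 days.

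The type I interferon list was higher in 7 of 11 at PMA 3 days and 5 of 11 at PMA 8 days, with none lower (medians of 1.35 and 0.91). Beside this, 10.4% of all genes were higher and 10.7% lower at PMA 3 days, and 9.83% and 8.49% at PMA 8 days. IFIT1 read 1220, 18254 and 9552, ISG15 read 3154, 18469 and 9453, and IFIT3 read 1813, 12212 and 6727. OAS1, which senses double-stranded RNA, was 4.45-fold and 3.06-fold higher. IFIT1, ISG15 and IFIT3 were lower at PMA 8 days than at PMA 3 days by 0.86 to 0.97 on the log2 scale, short of 2-fold, and MX1 was 2.68-fold lower (10193 to 3800). The list's median for PMA 8 days over PMA 3 days was -0.54, beside 0.01 for the 9 class I genes. A difference between the lists was not tested, as each rests on 1 array per time.

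MHC class II genes, whose products present peptides from outside the cell to CD4 T cells, differed among themselves. None of 12 was higher and 5 were lower at PMA 3 days (median -0.24), and at PMA 8 days 1 of 11 was higher and 7 were lower (median -1.45). Of all genes, 10.4% were higher and 10.7% lower at PMA 3 days, and 9.83% and 8.49% at PMA 8 days. HLA-DRA read 18887, 6415 and 2029, 2.94-fold and 9.31-fold lower. HLA-DPA1 read 14108, 4536 and 1817, 3.11-fold and 7.76-fold lower by its brightest probe set. Its other informative probe sets disagreed, with log2 ratios of -2.18 and 0.51 at PMA 3 days, and -3.22 and 0.47 at PMA 8 days. HLA-DQA1 read 1413 and 275, and was below the floor at PMA 8 days, at least 9.43-fold lower. Another HLA-DQA1 probe set was not above the floor on either PMA array. Its log2 ratio of -0.71 at both times is therefore a bound, and the drop may be larger. HLA-DQB1 was 3.67-fold and 6.14-fold lower by its brightest probe set. Its 5 other informative probe sets had log2 ratios from -1.97 to -0.65 at PMA 3 days and from -2.78 to -0.61 at PMA 8 days. Of these, 3 and 4 passed 2-fold. HLA-DOA, below the floor in undifferentiated cells, was at least 2.35-fold higher at PMA 8 days. HLA-DRB1, with 25338, 36317 and 25739, and HLA-DMA, with 2082, 3034 and 1993, were not called at either time, with log2 ratios of 0.52 and 0.54 at PMA 3 days and 0.02 and -0.06 at PMA 8 days. The names of the HLA-DRB1 and HLA-DOA probe sets end in _x_at, so their signal may come in part from other genes. Neither gene had another informative probe set. The transactivator CIITA, a relative of NLRC5, read 126, 185 and 205, near the floor. HLA-DMB, the next gene after PSMB9 in the RefSeq order of TAP2, PSMB8, TAP1, PSMB9, HLA-DMB, read 1726, 1681 and 749 and was called lower at PMA 8 days.

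**Figure D4:**
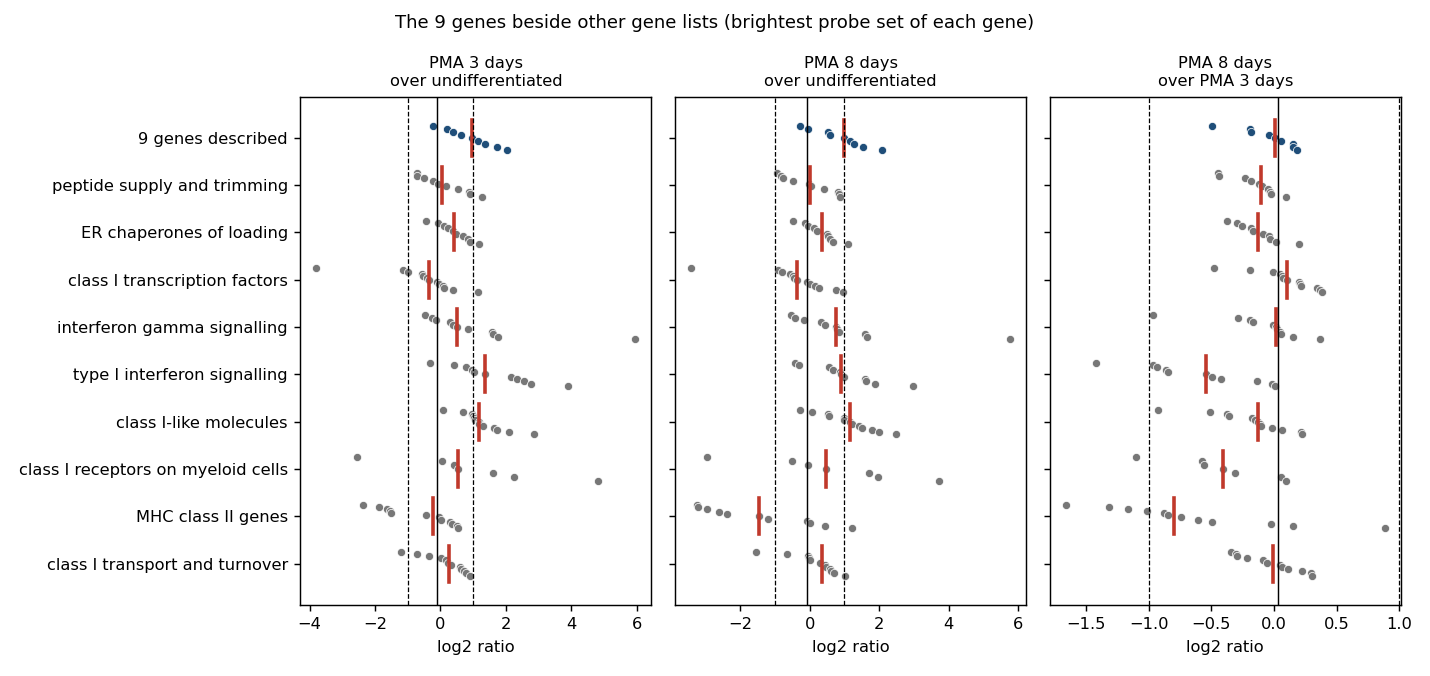
log2 ratios (x axis) of the genes in each list (y axis) for the 3 comparisons, 1 point per gene above the floor by its brightest probe set, blue for the 9 class I and loading genes and grey for the other lists. Points are spread up and down within a list by rank, red bars are list medians, the solid line is the median of all genes, dashed lines mark 2-fold, and the panels have different x axes. The median of the 9 genes lies at 0.98, 0.99 and 0.01, and that of MHC class II genes at -0.24, -1.45 and -0.79.

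Relatives of class I heavy chains with other tasks were higher in 9 of 13 measured members at PMA 3 days and in 9 of 13 at PMA 8 days, 8 of them at both times, and lower in none (medians of 1.18 and 1.17). The background over all genes was 10.4% higher and 10.7% lower at PMA 3 days, and 9.83% and 8.49% at PMA 8 days. CD1E, of the lipid-presenting CD1 family, read 258, 1857 and 1435, 7.19-fold and 5.56-fold. CD1A (4.24-fold and 3.95-fold), CD1C (3.35-fold and 3.49-fold) and HFE, the regulator of iron uptake (3.10-fold and 2.84-fold), followed. HFE had 9 other informative probe sets at PMA 3 days, with log2 ratios from -0.19 to 1.36, of which 3 passed 2-fold, and 10 at PMA 8 days, from 0.05 to 1.32, of which 2 did. Another informative CD1E probe set had a log2 ratio of 0.19 at PMA 3 days. The list also holds HLA-G, at 14026, 34209 and 31589, whose probe sets may share signal with other heavy chains. FCGRT, the neonatal Fc receptor that also pairs with B2M, read 3486, 6861 and 3621.

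Receptors through which myeloid cells sense class I molecules, and their relatives, went both ways, 3 of 7 higher and 1 lower at both times (medians of 0.53 and 0.48). Among all genes 10.4% were higher and 10.7% lower at PMA 3 days, and 9.83% and 8.49% at PMA 8 days. LILRB2, an inhibitory receptor for class I, read 451, 2164 and 1747, 4.80-fold and 3.87-fold. LILRB3 was 3.06-fold and 3.27-fold higher. PILRA, an inhibitory receptor of the list that is not known for binding class I, read 613, 17288 and 8053, 28.2-fold and 13.1-fold. LILRA2, an activating relative, was lower, at 6197, 1067 and 806. LILRB1, the broad class I receptor, read 603, 870 and 583. The names of the LILRB1, LILRB2 and LILRB3 probe sets read here end in _x_at, so their signal may come in part from relatives.

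The genes with a pattern most like that of TAP1 were sought among 11128 genes above the floor on all 3 arrays, by the distance between pairs of log2 ratios at PMA 3 days and PMA 8 days. The 5 nearest by brightest probe sets were BCAT1, ANTXR2, CNRIP1, ZEB1 and STK38L, at distances of 0.01 to 0.06. These distances are far below the SD between probe sets of 0.40, so the ranking of near genes is not resolved. BCAT1, a branched-chain amino acid transaminase, read 7552, 30872 and 31620. ANTXR2, an anthrax toxin receptor, read 2261, 8919 and 9419. None of the 5 is in a list above. Other informative probe sets of BCAT1 had larger log2 ratios than its brightest at both times. Those of ANTXR2, ZEB1 and STK38L had smaller ones, for STK38L 1.53 at PMA 3 days and 1.35 at PMA 8 days. CNRIP1 had no other informative probe set. The likeness to TAP1 therefore holds for the brightest probe sets, and it rests on 3 arrays and 2 ratios that share 1 of them.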

How the data were processed

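Biotin-labelled RNA of 3 THP-1 cultures was measured on 1 oligonucleotide array each. The deposited intensity values were made with MAS5, per the submitters' processing notes; its version and settings are not given in the sources used here. After 2% of values were left out at either end, the mean signal of each array was 1000, as checked on the values. Groups follow the treatment labels. Probe sets were named from the platform table: 41091 listed 1 gene, 1801 several and 11721 none, and 62 controls were set aside. Names were checked by Entrez ID in the RefSeq table (GRCh38.p14): 41037 probe sets were found there and 0 symbols had to be updated.

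Signals under the floor (the 50th percentile, 149.8) were raised to it, and log2 ratios, 2-fold calls and medians were formed for 3 pairs of arrays. A gene entered a comparison if its brightest probe set was above the floor on either array. The SD between probe sets came from the brightest pair of each gene with at least 2 above the floor on all 3 arrays. The steps were tested on simulated data. The members and lists were chosen with earlier results of these data known. Named genes are all members, up to 4 genes per list past 2-fold, and the 5 nearest to TAP1 by distance; other listed genes were named for their role after their values were seen. Alternatives changed the floor, normalization, probe set choice and threshold. Computation ran in Python 3.11.15 (numpy 2.4.6; pandas 2.3.3; scipy 1.17.1), and plots were drawn by matplotlib 3.10.9.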

Additional observations from a re-analysis of the deposited data

How the results depend on the processing

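Of 228 ratios of single genes under the alternatives, 98 equal the reported value by construction, among them all under another floor, since the brightest probe sets lie far above every floor tried. Of the other 130, 105 moved by less than the SD between probe sets, 25 moved by more, and 0 past 2-fold turned sign. At PMA 3 days the count of 4 genes of 9 went to 1 of 7 by second-brightest probe sets and 2 of 9 at 3-fold. At PMA 8 days the count of 4 went to 2 by the median of probe sets, 1 of 7 by second-brightest probe sets, 1 of 6 without _x_at and _s_at probe sets and 1 at 3-fold, and the median log2 ratio of 0.99 went to 0.58 by second-brightest probe sets. For PMA 8 days over PMA 3 days the count stayed at 0 under every alternative run, and the median of 0.01 went to 0.29 under poly-A control scaling. HLA-B, HLA-C and TAP1 have no value without _x_at and _s_at probe sets, and TAP1 and NLRC5 none by second-brightest. No paired analysis was possible because each condition has 1 array.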
